A study of Mus musculus with 5 samples.

Results

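The mitochondrial genome of the mouse encodes 37 genes, and each of them has a row in the count files: 13 mRNAs (mt-Nd, mt-Co, mt-Cytb and mt-Atp), 2 rRNAs (mt-Rnr1 and mt-Rnr2) and 22 tRNAs (mt-T). They were chosen by the prefix mt- of the gene symbol, from 46959 symbols in all. The prefix uses no measured value, but earlier results of these data were known when it was chosen. The cells were D4M.3A, a melanoma line from the mouse strain C57BL/6, at passages 7 to 12. The reference group, pBABE, carried an empty retroviral vector (n = 2 libraries), and the other group, caMNK, carried constitutively active MNK1, a kinase that phosphorylates the translation factor eIF4E (n = 3 libraries). Total RNA was sequenced. Libraries of a group are biological replicates by the series text, which does not say whether they came from separate cultures, so p-values measure the spread between these libraries, which may be technical. Each group is a single transduced line, so the kinase and whatever else sets the lines apart cannot be told apart.

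Mitochondrial DNA is a small circle with a heavy and a light strand. Each strand is transcribed by the polymerase POLRMT, with the factors TFAM and TFB2M, into long RNAs that span many genes. Most mRNAs and rRNAs are flanked by tRNAs, and enzymes that cut at both ends of a tRNA release the RNAs between them, so that tRNAs act as punctuation. The mRNAs encode core subunits of the respiratory chain and of ATP synthase, and the rRNAs and tRNAs serve the mitochondrial ribosome. RNAs cut from the same transcript then reach very different levels, since each class is matured and degraded in its own way.

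Of the tRNA genes whose groups did not overlap, 8 are shown with their sequences, written 5′ to 3′ on their own strand from the GENCODE M21 transcripts (mouse build mm10), with the anticodon in capitals. The first 6 had a lower scaled level in every caMNK library than in either pBABE library, and the last 2 had a higher one. Of all genes tested, 22.6% lay lower in this way and 22.3% higher.
mt-Ty (tyrosine, chrM:5260-5326, minus strand): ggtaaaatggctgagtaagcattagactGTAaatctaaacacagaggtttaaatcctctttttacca
mt-Tc (cysteine, chrM:5192-5257, minus strand): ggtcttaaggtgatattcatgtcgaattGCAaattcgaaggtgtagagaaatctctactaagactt
mt-Th (histidine, chrM:11546-11612, plus strand): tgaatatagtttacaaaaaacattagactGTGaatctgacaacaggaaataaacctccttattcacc
mt-Ts2 (serine, chrM:11613-11671, plus strand): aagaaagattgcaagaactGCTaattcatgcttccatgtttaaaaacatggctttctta
mt-Tl2 (leucine, chrM:11671-11741, plus strand): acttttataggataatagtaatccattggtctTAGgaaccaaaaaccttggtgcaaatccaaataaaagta
mt-Tr (arginine, chrM:9808-9875, plus strand): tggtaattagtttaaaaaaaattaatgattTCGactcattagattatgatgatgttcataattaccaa
mt-Ts1 (serine, chrM:6870-6938, minus strand): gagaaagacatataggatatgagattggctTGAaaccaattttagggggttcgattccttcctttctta
mt-Te (glutamate, chrM:14071-14139, minus strand): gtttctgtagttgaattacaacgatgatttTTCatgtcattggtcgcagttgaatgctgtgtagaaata

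Genes on this circle touch and overlap. For example, mt-Nd4l and mt-Nd4, subunits of complex I carried by a common mRNA, share 7 bases, in capitals here (chrM:10137-10203, plus strand).
mt-Nd4l and mt-Nd4 junction: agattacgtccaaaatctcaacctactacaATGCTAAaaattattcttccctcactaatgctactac
The deposited counts do not part such neighbours. Among pairs of genes nested one in the other, with at least 1000 counts in the inner gene, the outer gene had at least as many counts in 126 of 127 pairs on the same strand and in 151 of 154 pairs on opposite strands. A read in an overlap was therefore counted for both genes and without regard to strand. A count in a tRNA row can come from the mature tRNA, from a longer RNA that still holds it or from the opposite strand, and these cannot be told apart. The RNA was also purified with a column kit, which affects short RNAs. The tRNA rows are therefore counts over tRNA genes and not a measure of mature tRNA.

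The 5 libraries held 27827199 to 48794336 counts. Mknk1, the gene of the introduced kinase, measured 15.2 and 16.7 CPM (the counts-per-million value of the TMM-scaled library) in pBABE and 167, 155 and 168 CPM in caMNK, higher in each library labelled caMNK. Among the caMNK libraries, replicate 2 stood apart: a chi-square of its counts, divided by the degrees of freedom, came to 20.5 against replicate 1 and 45.0 against replicate 3, beside 8.33 between replicates 1 and 3 and 5.94 between the pBABE libraries. Pairs across the groups gave 29.7 to 54.1, a range that holds the 45.0 between caMNK replicates 2 and 3. This value grows with the number of counts, and caMNK replicate 2 had the most, so the pairs are not strictly comparable. Results that change without caMNK replicate 2 are given both ways. Of 17026 genes tested with edgeR's quasi-likelihood test, 753 were higher and 599 lower in caMNK at a Benjamini-Hochberg adjusted p under 0.05, so that 7.94% were called in either direction, 4.42% higher and 3.52% lower. Rises made up 55.7% of these calls, against 68.2% where libraries were scaled by their total counts, which moved the median of all genes by 0.05 on the log2 scale. With either scaling the same 6 mRNA rows, the same rRNA row and the same tRNA row of the mitochondrial genome were called higher, where total-count scaling called 5.87% of all genes higher. The pigment cell markers Dct and Tyrp1 had 0 counts in every library, Tyr, Mlana and Sox10 were at most 0.0620 CPM, and Mitf, the pigment cell transcription factor, measured 4.35 to 6.48 CPM, so the melanocytic markers that would support the label were absent or low.

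Calls differed in number between the classes. Of the 13 mRNA rows, 10 had enough counts to be tested. Among these 6 rose and 0 fell, where 4.42% of all genes rose. At an unadjusted p under 0.05 there were 9, all higher, against 13.8% of all genes higher, and the median log2 fold change was 0.67, beside −0.0021 over all genes tested. Both rRNA rows were higher in every caMNK library, and 1 rose. Of the 22 tRNA rows 20 were tested, of which 1 rose and 0 fell. At an unadjusted p under 0.05 there were 4 higher and 7 lower tRNA rows, against 13.8% higher and 12.1% lower of all genes (25.9% in either direction). The median of the tested tRNA rows was −0.04. The difference between the classes was not tested. The 5 rows with too few counts were mt-Co2, mt-Atp8, mt-Atp6, mt-Td and mt-Tk.

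In each library the 37 rows together took 1.33% and 1.49% of the counts in pBABE and 2.13%, 2.37% and 2.08% in caMNK, or 1.41% ± 0.107 (SD, n = 2) against 2.19% ± 0.157 (SD, n = 3), a ratio of 1.56. Every caMNK library lay above both pBABE libraries. Most of this was mRNA, with 1.20% and 1.32% of the counts in pBABE and 1.95%, 2.16% and 1.91% in caMNK. The rRNA rows held 0.101% and 0.121% in pBABE and 0.137%, 0.161% and 0.132% in caMNK, again without overlap. The tRNA rows held 0.0343% and 0.0388% in pBABE and 0.0386%, 0.0545% and 0.0399% in caMNK, where the groups overlapped and replicate 2 was highest. The 95% Wilson intervals of these shares reached at most 0.00536 percentage points to either side, which covers counting error only. A two-sided exact permutation test of 2 against 3 libraries cannot go below 0.2, so no test was run on the shares. In bulk RNA, fewer cells of a type and less RNA per cell cannot be told apart.

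**Figure D1:**
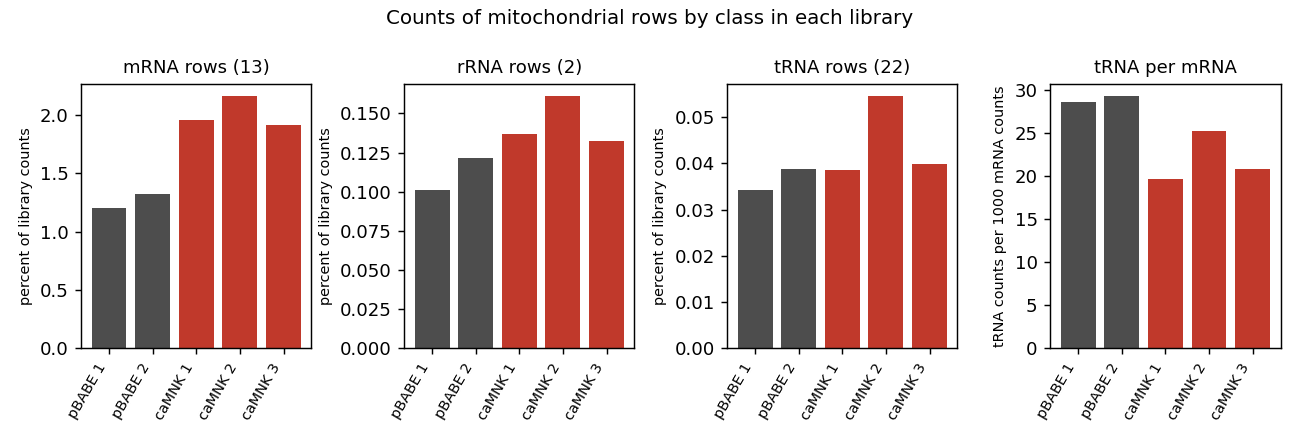
Bars give, for each library, the counts of the 13 mRNA rows, the 2 rRNA rows and the 22 tRNA rows as a percent of all counts, and in the last panel the tRNA counts per 1000 mRNA counts; each panel has its own scale from 0. The caMNK libraries (red) lie above both pBABE libraries (grey) for mRNAs and rRNAs, overlap them for tRNAs and lie below them in the ratio.

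Set against each other within a library, the classes moved by unequal amounts. Per 1000 mRNA counts, pBABE had 28.6 and 29.3 tRNA counts and caMNK had 19.7, 25.3 and 20.9. The mRNA counts in these ratios leave out reads counted in nuclear copies, which are described below. A large part of the tRNA counts was in mt-Te alone, which had 44.3% and 43.2% of them in pBABE and 53.2%, 57.1% and 55.0% in caMNK. Leaving mt-Te out, pBABE had 15.9 and 16.6 tRNA counts per 1000 mRNA counts, and caMNK had 9.24, 10.8 and 9.40, so the groups lay further apart. The rRNA rows had 8.42 and 9.16 counts per 100 mRNA counts in pBABE and 6.99, 7.46 and 6.93 in caMNK. In each of these ratios no caMNK library reached a pBABE library; the differences were not tested.

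Several mRNA rows cannot be read alone, since parts of the mitochondrial genome have copies in the nuclear genome. On chromosome 1, from 24611535 to 24616197 on the minus strand, 7 annotated pseudogenes match mt-Co1 (its 3′ part), mt-Co2, mt-Atp6, mt-Co3, mt-Nd3, mt-Nd4l and mt-Nd4 (its 5′ part) at 99% identity or more. They stand in the order of the mitochondrial genes from 6390 to 11042 on chromosome M. Of the 6 gaps between neighbours 5 had the same length on both chromosomes, and the sixth, which holds mt-Tr, measured 73 and 74 bases. The other gaps hold mt-Ts1, mt-Td, mt-Tk and mt-Tg. None of these tRNAs has an annotated copy there, so their rows could not be summed with one and may hold only part of their reads. The copies of mt-Co2, mt-Atp6 and mt-Co3, called Gm28661, Gm10925 and Gm28437, matched over 681, 678 and 783 bases without a mismatch. In mt-Nd3 and its copy Gm28438 the difference was T3C, counted from the first base of the gene, and it is in capitals in the start of each sequence (5′ to 3′, build mm10).
mt-Nd3 (chrM:9459-9491, plus strand): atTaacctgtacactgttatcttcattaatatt
Gm28438 (chr1:24613087-24613119, minus strand): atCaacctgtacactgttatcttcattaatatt

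The counts fell on different sides of this pair of copies from gene to gene. Row mt-Co2, a copper-binding subunit of complex IV, held 1 and 2 counts in pBABE and 2, 4 and 3 in caMNK, while Gm28661 held 94173 and 77358 in pBABE and 92847, 174694 and 126359 in caMNK. For mt-Atp6, the proton channel subunit of ATP synthase, there were 3 to 7 counts per library, and Gm10925 held 116999 and 95701 in the pBABE libraries and 126028, 295130 and 134776 in the caMNK libraries. Row mt-Co3, a subunit of complex IV, held 61 to 78 counts and Gm28437 54994 to 113895. The reverse held for mt-Nd4l and mt-Nd4, with at least 7031 and 46521 counts in the mitochondrial row and at most 5 and 7 in the copy. Where the sequences are identical, a read cannot show which chromosome it came from. Gm28661 and Gm29216, the copy of the 3′ part of mt-Co1, rose (log2 fold changes 0.55 and 0.78, edgeR adjusted p of 0.0109 and 0.00811), and Gm10925 and Gm28437 had 0.70 (0.0565) and 0.35 (0.0566). Between the stretches of mt-Co2 and mt-Atp6 that the copies match lie 233 bases, where the annotation has no copy. They hold mt-Tk, with 0 counts in every library, and most of mt-Atp8, with at most 3 counts, whose end overlaps mt-Atp6.

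**Figure D2:**
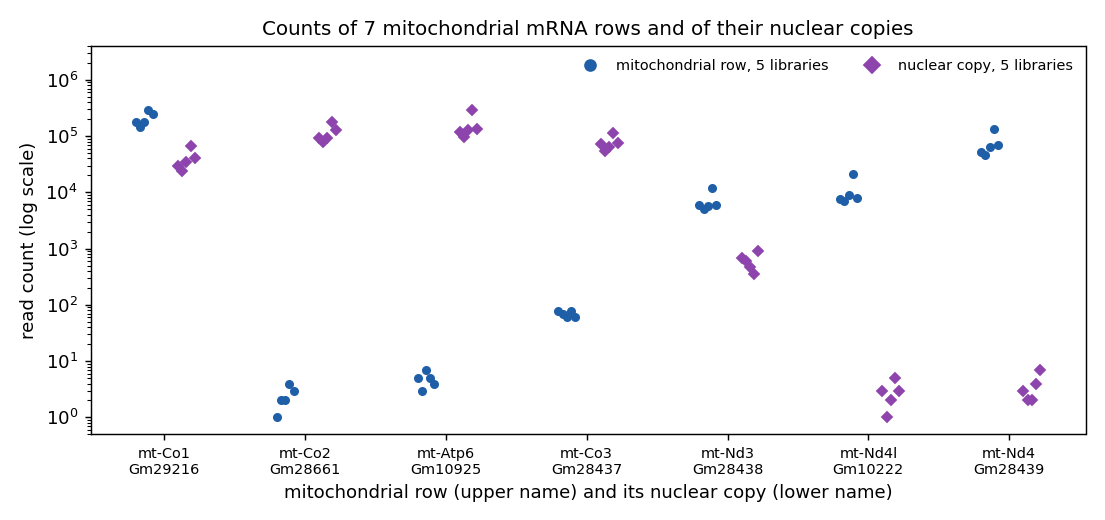
Points are read counts (log axis) in the 5 libraries, circles for the mitochondrial row and diamonds for its nuclear copy, with libraries in the order pBABE 1, pBABE 2, caMNK 1, caMNK 2, caMNK 3 from left to right. For mt-Co2, mt-Atp6 and mt-Co3 the counts lie in the copy, and for mt-Nd3, mt-Nd4l and mt-Nd4 in the mitochondrial row.

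Each mitochondrial row was therefore also summed with its copy of 99% identity or more, an alternative chosen after seeing the data. The sums took 2.07% and 2.25% of all counts in pBABE and 3.27%, 3.71% and 3.12% in caMNK, and 33.2% to 36.0% of them came from the copies. Of 12 mRNAs then tested, 7 rose and 0 fell, in a fit where 4.42% of all genes rose. Per kilobase of gene, the highest level in pBABE was that of mt-Atp6 (4121 to 4355 CPM per kilobase over 2 libraries), followed by mt-Co2 (3303 to 3505) and mt-Co1 (3251 to 3437), which overlapped each other. Then came mt-Co3 (2176 to 2208), mt-Cytb (1948 to 2147), mt-Nd6 (1414 to 1566) and mt-Nd1 (1239.8 to 1406), which did not overlap. The other complex I mRNAs were lowest, with mt-Nd2 (1031 to 1190.4) overlapping mt-Nd4 (915 to 1046), mt-Nd4l (614 to 734) overlapping mt-Nd5 (634 to 708), and mt-Nd3 (466 to 502) below them. These levels hold reads of both strands.

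**Figure D3:**
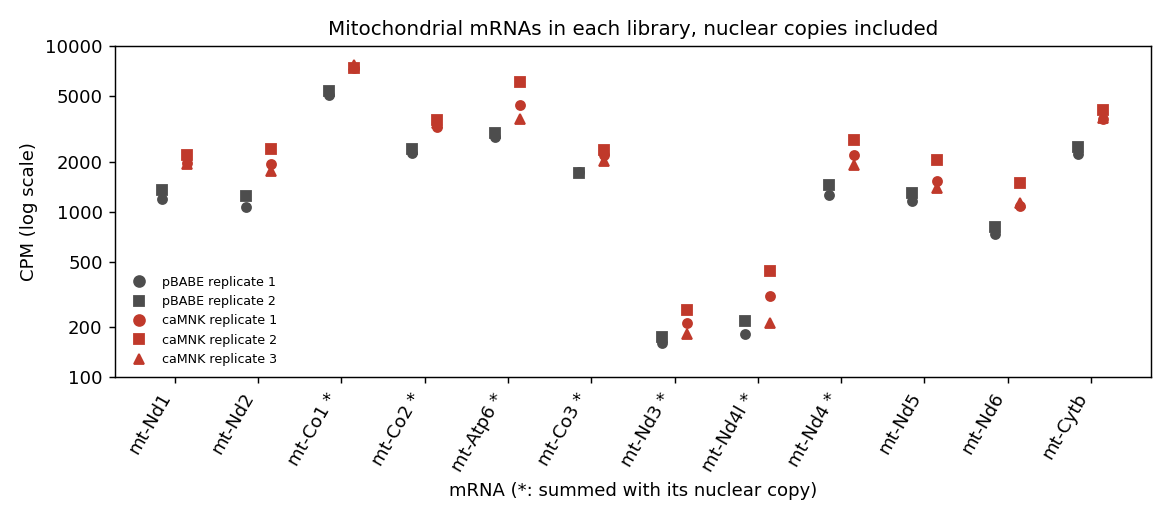
Points give CPM (log axis) of 12 mitochondrial mRNAs in each library, with a star where the row was summed with its nuclear copy; grey is pBABE and red is caMNK, and the marker shape is the replicate. For 11 of the 12 every caMNK point lies above both pBABE points; for mt-Nd4l caMNK replicate 3 falls between them.

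Complex I, the NADH dehydrogenase, has 7 subunits encoded here, and 4 of these mRNA rows rose. Row mt-Nd1 (chrM:2751-3707), the subunit that helps form the quinone-binding site, measured 1187 and 1346 CPM in pBABE and 1968, 2199.6 and 1933 CPM in caMNK. All 3 caMNK libraries were higher (log2 fold change 0.68, SE 0.09998, edgeR adjusted p = 0.00881). Row mt-Nd2, a proton-pumping subunit, measured 1070.1 and 1236 CPM in pBABE and 1944, 2394 and 1748 CPM in caMNK, the largest difference of a tested mRNA row (0.82, SE 0.140, edgeR adjusted p = 0.0139). Row mt-Nd4, another proton-pumping subunit, measured 1261 and 1442 CPM in pBABE and 2187, 2701 and 1905 CPM in caMNK (0.74, SE 0.147, edgeR adjusted p = 0.0213). The light-strand row mt-Nd6 measured 734 and 813 CPM in pBABE and 1075, 1487 and 1130.3 CPM in caMNK (0.67, SE 0.144, edgeR adjusted p = 0.0284). In these 4 rows the groups did not overlap.

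The other 3 complex I rows had positive differences that did not pass. Row mt-Nd5, also a proton-pumping subunit, measured 1157 and 1292 CPM in pBABE and 1540.2, 2060.5 and 1393 CPM in caMNK (log2 fold change 0.44, edgeR adjusted p = 0.123; DESeq2 adjusted p = 0.0371; 7.47e-05 to 0.546 over all 13 alternative settings). Its caMNK libraries all lay above pBABE, with replicate 2 far above the others. Row mt-Nd3 measured 145 and 156 CPM in pBABE and 198, 247 and 159.6 CPM in caMNK (0.42, edgeR adjusted p = 0.152), or 0.37 (0.126) summed with Gm28438. Row mt-Nd4l measured 182 and 218 CPM in pBABE and 309, 436 and 213 CPM in caMNK (0.68, edgeR adjusted p = 0.135), and here replicate 3 of caMNK lay within the pBABE range. Both mt-Nd3 and mt-Nd4l passed without caMNK replicate 3 and without a low-count filter (adjusted p of 6.06e-05 to 0.565 and 1.26e-11 to 0.546 over all settings).

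Complexes III, IV and V have 6 mRNA rows, of which 3 could be tested without the copies. Cytochrome b, mt-Cytb (chrM:14145-15288), the catalytic subunit of complex III, had the lowest p of the mitochondrial rows. It measured 2228 and 2456 CPM in pBABE and 3643, 4112 and 3695 CPM in caMNK. It rose 1.63-fold, or by 0.70 on the log2 scale (SE 0.095, edgeR adjusted p = 0.00748). Row mt-Co1 (chrM:5328-6872), the haem-copper subunit of complex IV, measured 4324 and 4573 CPM in pBABE and 6096, 6027 and 6594 CPM in caMNK (0.49, SE 0.086, edgeR adjusted p = 0.0146). Summed with Gm29216, its difference was 0.53 (0.00982). Row mt-Co3 had −0.17 (edgeR adjusted p = 0.650) on its few counts. The sum with Gm28437 measured 1731 and 1706 CPM in pBABE and 2205, 2345 and 2007 CPM in caMNK and turned the direction, at 0.35 (0.0564). The sum of mt-Co2 and Gm28661 measured 2259 and 2397 CPM in pBABE and 3237, 3594 and 3415 CPM in caMNK (0.55, 0.0108), and that of mt-Atp6 and Gm10925 2807 and 2966 CPM in pBABE and 4394, 6072 and 3642 CPM in caMNK (0.70, 0.0562).

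Of the 10 mRNA rows tested, 8 had no overlap between the groups and lay higher in caMNK; 22.3% of all genes tested did so. The calls rested on both pBABE libraries. Without pBABE replicate 1 or pBABE replicate 2, 0 mRNA rows were called higher, where 0.0631% and 0.208% of all genes were. Over the called mitochondrial rows the edgeR adjusted p was then 0.135 to 0.334 and 0.0717 to 0.222. Without caMNK replicate 1, mt-Cytb and mt-Nd1 were called (edgeR adjusted p of 0.0394 and 0.0441; 1.04% of all genes higher). Without caMNK replicate 2, 7 mRNA rows were called (13.9% of all genes higher), and without caMNK replicate 3 there were 9 (5.57%). With the copies summed, the called mRNAs numbered 0, 0, 3, 11 and 12 in the same order of libraries left out, and 5.58% of all genes were higher in the last of these fits.

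The rRNA rows are what remained of the RNAs of the mitochondrial ribosome after library preparation from total RNA, a workflow that commonly removes rRNA; the removal reagent is not given in the sources used here. The small-subunit row mt-Rnr1 (chrM:70-1024) measured 105 and 116 CPM in pBABE and 164, 179 and 143 CPM in caMNK. It rose 1.46-fold, or by 0.55 on the log2 scale (SE 0.113, edgeR adjusted p = 0.0248). The large-subunit row mt-Rnr2 (chrM:1094-2675) measured 929.8 and 1124 CPM in pBABE and 1162, 1437 and 1158 CPM in caMNK (0.29, SE 0.128, edgeR adjusted p = 0.199). Both rows were higher in every caMNK library. Each mt-Rnr1 count came with 8.85 and 9.65 mt-Rnr2 counts in pBABE and 7.09, 8.01 and 8.08 in caMNK, without overlap. The call of mt-Rnr1 was lost without pBABE replicate 1 (0.292), pBABE replicate 2 (0.145) or caMNK replicate 1 (0.105). The nuclear rRNA row Rn18s-rs5 measured 541 and 539 CPM in pBABE and 389.7, 540.03 and 509.9 CPM in caMNK (edgeR adjusted p = 0.471). Its part in the mitochondrial rRNA result was not tested.

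**Figure D4:**
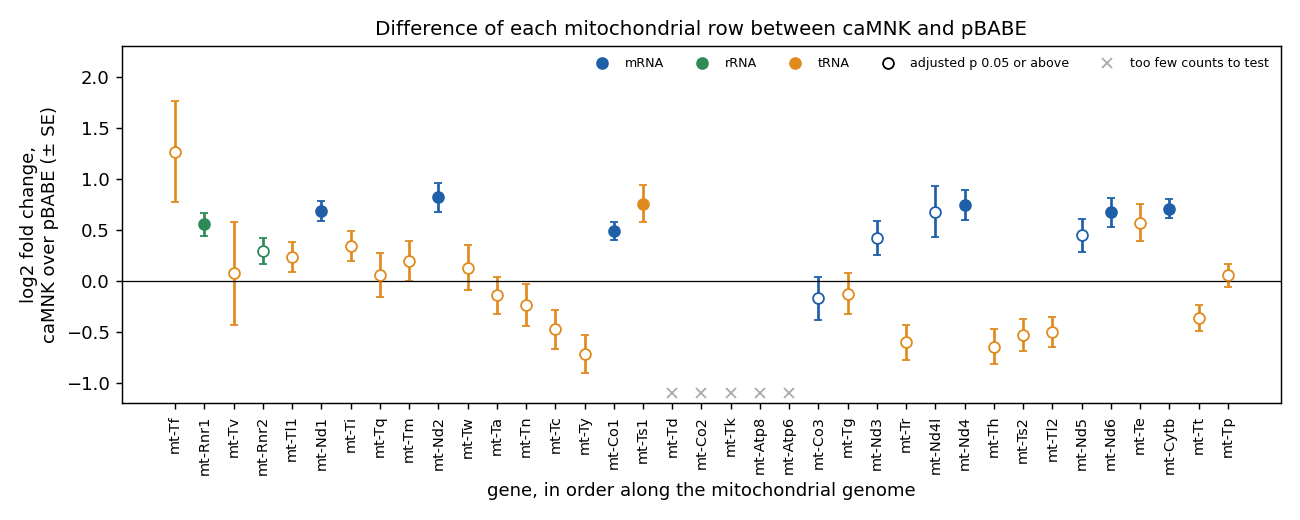
Points are edgeR log2 fold changes of caMNK over pBABE with their standard errors for each mitochondrial row, in the order of the genes on the circle, coloured by class; filled points had an adjusted p under 0.05 and crosses mark rows with too few counts. The mRNA points lie above 0 except mt-Co3, while the tRNA points run downward from mt-Tw to mt-Ty between mt-Nd2 and mt-Co1 and lie below 0 at mt-Tr, mt-Th, mt-Ts2, mt-Tl2 and mt-Tt.

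Between mt-Nd2 and mt-Co1 lie 5 tRNA genes, mt-Tw on the plus strand and mt-Ta, mt-Tn, mt-Tc and mt-Ty on the minus strand. In that order along the chromosome the log2 fold changes were 0.13, −0.14, −0.24, −0.48 and −0.72, although the mRNA rows on either side rose. Row mt-Ty, next to mt-Co1, measured 10.99 and 13.3 CPM in pBABE and 5.68, 8.97 and 7.16 CPM in caMNK, so that every caMNK library was lower (edgeR adjusted p = 0.0516; DESeq2 adjusted p = 0.00495; 3.38e-05 to 0.331 over all settings). Row mt-Tc measured 15.4 and 17.5 CPM in pBABE and 9.24, 15.2 and 10.7 CPM in caMNK (edgeR adjusted p = 0.165). Row mt-Tn measured 15.5 and 17.6 CPM in pBABE and 11.1, 18.6 and 12.1 CPM in caMNK, where replicate 2 stood above pBABE and the other replicates below. Per 100 mt-Tw counts, there were 74.4 and 84.3 mt-Ty counts in pBABE and 41.4, 39.7 and 54.0 in caMNK. That ratio was lower in each caMNK library, replicate 2 included.

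The 3 tRNA genes between mt-Nd4 and mt-Nd5 gave like values. Row mt-Th measured 9.16 and 10.97 CPM in pBABE and 5.65, 7.76 and 5.70 CPM in caMNK (log2 fold change −0.65, edgeR adjusted p = 0.0554; DESeq2 adjusted p = 0.0136; 0.000272 to 0.357 over all settings). Row mt-Ts2, the gene of a tRNA known for lacking the D arm, measured 9.84 and 12.2 CPM in pBABE and 6.94, 8.80 and 6.95 CPM in caMNK (−0.54, 0.0730; DESeq2 0.0390; 0.00132 to 0.471 over all settings). Row mt-Tl2, which shares a base with mt-Ts2, measured 13.03 and 17.01 CPM in pBABE and 10.004, 11.9 and 9.67 CPM in caMNK (−0.50, 0.0766; DESeq2 0.0389; 0.00227 to 0.522 over all settings). The groups did not overlap in any of these 3 rows. Relative to the mRNA upstream, pBABE had 7.27 and 7.61 mt-Th counts per 1000 mt-Nd4 counts, and caMNK had 2.58, 2.87 and 2.99, a ratio of the group means of 0.378. The like ratios of mt-Ts1 to mt-Co1 and of mt-Te to mt-Cytb, given below, overlapped between the groups. Row mt-Tr, between mt-Nd3 and mt-Nd4l, measured 4.58 and 5.98 CPM in pBABE and 3.87, 3.17 and 3.38 CPM in caMNK (−0.61, edgeR adjusted p = 0.0692). It lies in a gap of the stretch copied on chromosome 1, so its counts may be partial. Row mt-Tt, after mt-Cytb, measured 7.70 and 7.99 CPM in pBABE and 5.96, 6.46 and 5.81 CPM in caMNK (−0.37, edgeR adjusted p = 0.108).

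Of the 20 tRNA rows, 4 lay higher in caMNK without overlap, where 22.3% of all genes tested did so. Row mt-Ts1, whose end overlaps that of mt-Co1, lies in a gap of the stretch copied on chromosome 1, so its counts may be partial. Per 1000 mt-Co1 counts it held 0.538 and 0.549 counts in pBABE and 0.669, 0.761 and 0.533 in caMNK, where the groups overlapped. Row mt-Ts1 measured 2.33 and 2.51 CPM in pBABE and 4.08, 4.59 and 3.51 CPM in caMNK. It rose (log2 fold change 0.75, SE 0.181, edgeR adjusted p = 0.0413) on 81 to 223 counts per library, and its call was lost without either pBABE library (0.334 and 0.222) or caMNK replicate 1 (0.133). Row mt-Te, on the light strand between mt-Nd6 and mt-Cytb, measured 156 and 171 CPM in pBABE and 199, 313 and 216 CPM in caMNK (0.57, edgeR adjusted p = 0.0887; DESeq2 adjusted p = 0.00949; 8.94e-06 to 0.453 over all settings). Per 1000 mt-Cytb counts, there were 70.0 and 69.8 mt-Te counts in pBABE and 54.7, 76.0 and 58.4 in caMNK, which overlapped. Per kilobase, mt-Te stood at 2372 CPM in pBABE, beside 1490.2 for mt-Nd6 and 2047 for mt-Cytb, the mRNA rows next to it. The value of mt-Th was 150.2, against 981 for mt-Nd4. A read that lies only partly in so short a row counts in full, which raises the level per kilobase of tRNA rows against that of longer rows. Row mt-Ti, which overlaps mt-Nd1, had 0.34 (edgeR adjusted p = 0.185). Row mt-Tf, at the start of the heavy-strand transcripts, had 1.26 on 5 to 30 counts per library (edgeR adjusted p = 0.152).

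**Figure D5:**
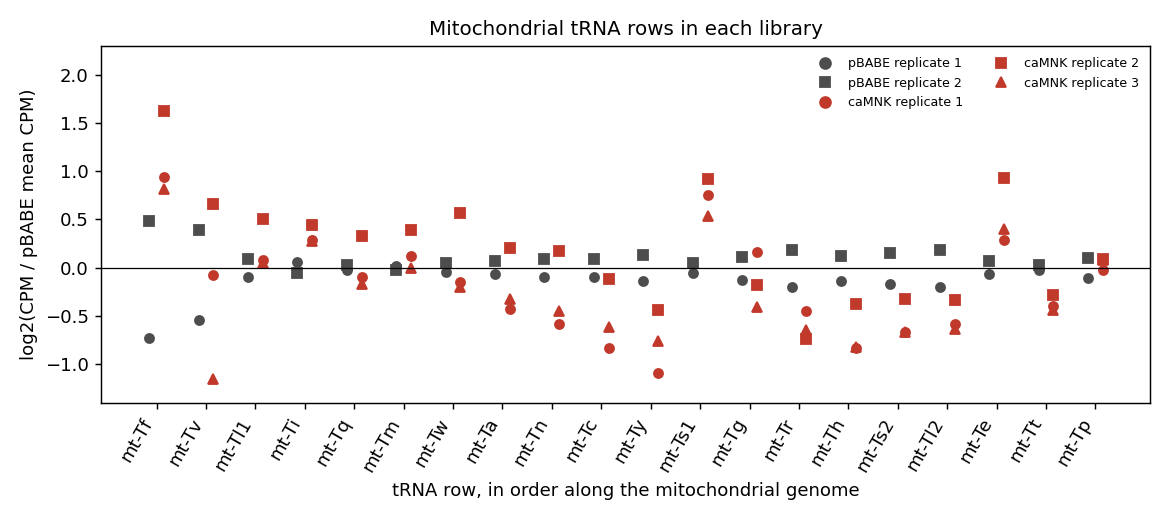
Points give, for the 20 tested tRNA rows in gene order, the log2 ratio of each library's CPM to the mean of pBABE; grey is pBABE, red is caMNK, and the marker shape is the replicate. All red points lie below both grey points at mt-Tc, mt-Ty, mt-Tr, mt-Th, mt-Ts2, mt-Tl2 and mt-Tt, and above them at mt-Tf, mt-Ti, mt-Ts1 and mt-Te; caMNK replicate 2 (red squares) is the highest caMNK point in 18 of the 20 rows.

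The remaining tested tRNA rows, mt-Tv, mt-Tl1, mt-Tq, mt-Tm, mt-Tg, mt-Ta, mt-Tw and mt-Tp, overlapped between the groups as mt-Tn did, with edgeR adjusted p-values of 0.369 to 0.947. Over the 20 rows, 7 lay lower in caMNK without overlap, where 22.6% of all genes tested did so, and 4 lay higher, where 22.3% did. Which tRNA rows were called depended on caMNK replicate 2. Without it, 9 tRNA rows were called lower (mt-Ta, mt-Tn, mt-Tc, mt-Ty, mt-Tr, mt-Th, mt-Ts2, mt-Tl2 and mt-Tt) and 2 higher (mt-Ts1 and mt-Te), in a fit that called 15.7% of all genes lower and 13.9% higher. DESeq2 called 4 lower (mt-Ty, mt-Th, mt-Ts2 and mt-Tl2) and 2 higher with all libraries, where it called 4.61% and 5.65% of all genes, and limma-voom called 0 lower, with 3.4% of all genes lower. Without a filter on low counts 6 tRNA rows were called lower and 2 higher, where 4.75% and 5.69% of all genes were. By strand, 5 of the 7 lower rows without overlap were of the 12 tested plus-strand tRNAs and 2 of the 8 minus-strand tRNAs.

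Nuclear genes that make, process and translate these RNAs were mostly not called, as was so for all genes tested. Over all genes, edgeR called 4.42% higher and 3.52% lower, and 25.9% had an unadjusted p under 0.05. Of 17 genes of mitochondrial transcription and DNA maintenance, 0 rose and 0 fell in edgeR (5 at an unadjusted p under 0.05; 0 by DESeq2 and 0 by limma-voom), with a median of 0.03. The polymerase gene Polrmt had a log2 fold change of −0.05 (edgeR adjusted p = 0.780), Tfam −0.07 (0.736), Tfb2m 0.06 (0.794) and the elongation factor gene Tefm 0.24 (0.247). The 3 lowest p-values of that list were of the DNA polymerase accessory subunit gene Polg2 (0.40, 0.113), the primase gene Primpol (0.28, 0.140) and the ligase gene Lig3 (−0.27, 0.159), which share reads with Milr1, Cenpu and Rffl. Of 22 genes of RNA processing and stability, 0 rose and 0 fell (2 at an unadjusted p under 0.05; 0 by DESeq2 and 0 by limma-voom), with a median of −0.03. Among these, Lrpprc and Slirp, whose products together stabilise mitochondrial mRNAs, had −0.29 (0.112) and 0.23 (0.121), and the RNase P subunit gene Trmt10c, needed to cut tRNA 5′ ends, 0.22 (0.225).

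Of 30 genes that modify mitochondrial rRNA and tRNA, 2 rose and 0 fell, where 4.42% and 3.52% of all genes did. Their median was 0.02. Trmt61b, a methyltransferase gene, measured 2.90 and 3.04 CPM in pBABE and 6.27, 5.41 and 5.30 CPM in caMNK (log2 fold change 0.93, SE 0.155, edgeR adjusted p = 0.0126), and shares reads with Spdya. Alkbh1, a dioxygenase gene that shares reads with Slirp, had 0.41 (edgeR adjusted p = 0.0482), and the tRNA thiolation gene Trmu 0.40 (0.144). Of 77 mitochondrial ribosomal protein genes, 0 rose and 1 fell: Mrpl48, which shares reads with Rab6a (−0.35, edgeR adjusted p = 0.0488). Mrpl33 had 0.29 (0.0864) and Mrpl23 −0.37 (0.10999). Limma-voom called 1 of the 30 higher, where it called 3.99% of all genes higher, and 0 of the 77 either way. Total-count scaling also called 0 of the 77. DESeq2 called 2 of the 30 higher and 1 of the 77 lower, where it called 5.65% of all genes higher and 4.61% lower.

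Among 10 regulators of mitochondrial biogenesis, 0 rose and 1 fell, the transcription factor gene Yy1 (log2 fold change −0.34, edgeR adjusted p = 0.0474), which neither limma-voom nor total-count scaling called. DESeq2 called 0 of the 10 higher and 1 lower, where it called 5.65% and 4.61% of all genes. The median of the 10 was −0.17, and 5 of them lay lower in caMNK without overlap and 0 higher, where 22.6% and 22.3% of all genes did so. Ppargc1a, the coactivator gene, measured 2.40 and 2.20 CPM in pBABE and 1.78, 1.67 and 1.54 CPM in caMNK (−0.47, 0.149), and Pprc1 had −0.20 (0.241). Of 74 tested nuclear genes of respiratory chain and ATP synthase subunits, 0 rose and 0 fell in edgeR, with a median of −0.05. At an unadjusted edgeR p under 0.05 there were 11, against 25.9% of all genes. DESeq2 called 1 higher and 1 lower, and limma-voom 0. Total-count scaling called 2 higher and 0 lower, where it called 5.87% of all genes higher. The lowest p-values were of Atp5a1 (−0.30, 0.0562), Uqcr10 (0.36, 0.0593) and Uqcrh (0.28, 0.0688). Without caMNK replicate 2, calls higher and lower were 2 and 2 for transcription and maintenance, 2 and 2 for processing, 4 and 1 for modification, 5 and 4 for ribosomal proteins, 0 and 4 for regulators and 6 and 4 for respiratory chain subunits, in a fit that called 13.9% of all genes higher and 15.7% lower.

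Other lists were counted in the same way, in the edgeR fit that called 4.42% of all genes higher and 3.52% lower. Of 7 tested nuclear non-coding RNAs, 4 rose and 1 fell: Neat1, the scaffold of nuclear paraspeckles, measured 85.3 and 90.7 CPM in pBABE and 252, 172 and 244 CPM in caMNK, and the list's summed level was 443 to 458 CPM in pBABE and 695 to 967 CPM in caMNK. Malat1, which shares reads with Gm37376, had a log2 fold change of 1.22, Airn, which shares reads with Igf2r, 0.81, Firre 0.63 and 2900097C17Rik −0.47 (edgeR adjusted p of 0.00537 to 0.0319 over the 5). Of 4 tested small structured RNAs, 1 fell, Rpph1, the RNA of nuclear RNase P (−1.29, edgeR adjusted p = 0.0236), at 1.68 and 1.18 CPM in pBABE and 0.627, 0.555 and 0.595 CPM in caMNK. The median of the 4 was 0.99 with all libraries and −0.55 without caMNK replicate 2. Their list summed to 4.18 to 5.37 CPM in pBABE and 2.301 to 11.3 CPM in caMNK, which overlapped. The part of these RNAs in the mitochondrial results was not tested. Of the markers of other cell types, the leukocyte genes Ptprc and Cd3e were at most 0.120 CPM in all libraries and Cd68 at 1.87 to 4.30 CPM, and the epithelial genes Epcam, Krt5 and Krt14 summed to at most 0.185 CPM. Of 2 endothelial genes, Pecam1 had a log2 fold change of 1.07 (edgeR adjusted p = 0.264), and Cdh5 fell from 4.89 and 8.80 CPM in pBABE to 2.27, 2.47 and 2.81 CPM in caMNK (edgeR adjusted p = 0.0141). Of 3 fibroblast genes Col1a1 fell, from 164 and 152 CPM in pBABE to 83.6, 113 and 82.6 CPM in caMNK (edgeR adjusted p = 0.0164), while Dcn had 0.38 (0.232) and Pdgfra −0.24 (0.218). Without caMNK replicate 2, calls higher and lower were 5 and 1 for nuclear non-coding RNAs and 0 and 2 for fibroblast genes. For leukocyte genes they were 1 and 0, and for pigment cell genes 0 and 1. That fit called 13.9% of all genes higher and 15.7% lower.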

How the data were processed

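The authors deposited raw, unnormalised read counts per gene symbol, 1 file per library, made from reads on the mouse build mm10. The tools named, per the submitters' processing notes, are featureCounts 1.5.3, STAR 2.5.3, Trimmomatic 0.32, SAMtools 0.1.19, FastQC 0.11.2 and DESeq2. Counting options and annotation release were not given in the sources used here. Per the labels' protocols, RNA came from the RNeasy Plus Mini Kit and libraries from the TruSeq Stranded Total RNA LT kit. Of 44118 symbols found once in GENCODE M21, 37335 had a deposited length equal to the gene's span, introns included.

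Counts were tested with edgeR 4.0.16 in R 4.3.3 (filterByExpr, TMM, robust quasi-likelihood F test, group as the only term, all 5 libraries), and p-values were adjusted by Benjamini-Hochberg over 17026 genes. Each SE came from dividing the absolute log2 fold change by √F. The script was tested on simulated data. Alternatives were DESeq2 1.42.0, limma-voom 3.58.1, other scalings and filters, a replicate block and leaving out each library. Nuclear copies were found by matching mitochondrial transcripts against annotated transcripts with BLAST 2.17.0 (at least 300 bases and 90% identity; shorter matches were listed apart), as the genome sequence was not used here. Genes sharing reads are those overlapped by a gene whose own counts reach 10% of theirs. All 37 members are named, with Mknk1, the copies with the 3 highest counts, 3 genes of lowest p in each list, and Polrmt, Tfam, Tfb2m, Tefm and Lrpprc; other named genes were chosen after their values were seen. The members and lists were chosen with earlier results of these data known.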

Additional observations from a re-analysis of the deposited data

How the results depend on the processing

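Log2 fold changes of the 32 tested mitochondrial rows kept their side of the threshold and their direction in 343 of the results under other settings; 42 passed only there, 22 no longer passed and 7 changed sign. The sign changed for mt-Tv by limma-voom (−0.019) and without pBABE replicate 1 or caMNK replicate 2 (leaving out 1 library, −0.53 to 0.56), for mt-Tq (−0.14 to 0.16) and mt-Tw (−0.18 to 0.27) without caMNK replicate 2, for mt-Tp without pBABE replicate 1 (−0.063 to 0.15) and for mt-Co3 summed with its nuclear copy (0.35). Without a filter on low counts, 1591 genes were higher and 1330 lower, 2 rRNA rows were higher, and 2 tRNA rows were higher and 6 lower. By DESeq2, 2 tRNA rows were higher and 4 lower. Leaving out 1 library gave 11 to 2325 genes higher and 12 to 2617 lower, 0 to 9 mRNA rows higher (0 to 12 with copies summed), 0 to 1 rRNA rows higher, and 0 to 2 tRNA rows higher and 0 to 9 lower. The cause of these changes was not tested. Where 1 pBABE library was left, that library is assumed to vary like the caMNK libraries. The ratio of mitochondrial shares stayed within the spread between libraries under its alternatives.

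With the replicate number as a block, 1477 genes were higher and 1231 lower, 2 rRNA rows were higher, and 2 tRNA rows were higher and 6 lower. Replicate 3 exists only in caMNK, so its block takes that library up and the group difference rests on replicates 1 and 2. Deviations from the group means correlated at −0.055 for replicates 1 and −0.025 for replicates 2. With 2 pBABE libraries their deviations mirror each other, so these values cannot show whether the numbers pair the samples.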
